A study of Homo sapiens with 15 samples.

Results

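The genes described here are 55 regulators and structural components of the G2 phase and of mitosis, named in a list by their current or former gene symbols. All 55 had at least 1 probe set that the platform annotation ties to no other gene, as had 19775 genes in all, and each gene was read from the brightest such set over the 15 arrays. Expression was profiled with Affymetrix HG-U133 Plus 2.0 arrays in A549, an established human lung carcinoma line of epithelial origin, after exposure to geldanamycin or to its vehicle. Geldanamycin is a benzoquinone ansamycin that occupies the ATP pocket of the chaperone HSP90. The 5 groups of 3 arrays were 40 nM geldanamycin and vehicle, each for 24 h, and vehicle, 10 nM and 40 nM geldanamycin, each for 48 h. Per the labels, the 40 nM dose is the IC50 and the 10 nM dose the IC20 of these cells, the vehicle was DMSO at 0.4%, cells were seeded 24 h before treatment, and the cells were confluent when they were collected. The series has no 10 nM group at 24 h, and all groups are 1 cell line. The labels do not say whether replicates were separate cultures, so the spread behind the p-values is that between arrays and may be technical.

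Entry into mitosis is driven by the kinase CDK1 with cyclins A and B, held back by WEE1 and released by CDC25 phosphatases. Aurora and Polo-like kinases, kinesins and kinetochore proteins then build the spindle, and the spindle checkpoint restrains the anaphase-promoting complex (APC/C), a ubiquitin ligase, until chromosomes are attached. Most of these genes are transcribed in late S phase and G2, under the MuvB complexes with B-MYB and FOXM1, and are kept silent in resting cells by the DREAM complex with E2F4. Several mitotic kinases, among them AURKB, PLK1, WEE1 and CDK1, have been described as proteins that depend on HSP90, while the arrays measured transcripts only.

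Promoter stretches are shown because MuvB complexes bind the cell cycle homology region, whose best known form is TTTGAA, and NF-Y binds CCAAT, and both letters are typical of this gene class. RefSeq promoters of build GRCh38.p14 were found for 46 of the 55 members, in 60 windows of 250 bases before an annotated start site. On either strand, TTTGAA occurred in 26 of the 60 windows (43.3%), against 13.3% of 35116 windows of all genes, and CCAAT in 40 (66.7%), against 32.0%. Windows with both letters numbered 21 (35.0%), against 4.69% of all windows, and the motifs can overlap by at most 1 base. The 6 stretches below are the 120 bases before the start site, printed 5′ to 3′ along the gene's strand, with TTTGAA and CCAAT on either strand in capitals. They belong to CDCA3, with the largest fall at 24 h, to DLGAP5, PLK1, CDC20 and CCNB2, which carry both motifs and also fell, and to INCENP, the member that was not called at 24 h. In order, they lie at chr12:6851287-6851406 (minus strand), chr14:55191586-55191705 (minus strand), chr16:23678769-23678888, chr1:43358861-43358980, chr15:59105026-59105145 and chr11:62123891-62124010 (plus strand), each in the flank outside the annotated transcript.
CDCA3: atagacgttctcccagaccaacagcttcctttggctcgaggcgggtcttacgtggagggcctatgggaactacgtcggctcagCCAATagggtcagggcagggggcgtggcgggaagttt
DLGAP5: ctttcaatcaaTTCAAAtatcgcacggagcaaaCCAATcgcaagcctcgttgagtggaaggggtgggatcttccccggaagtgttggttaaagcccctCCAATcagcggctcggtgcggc
PLK1: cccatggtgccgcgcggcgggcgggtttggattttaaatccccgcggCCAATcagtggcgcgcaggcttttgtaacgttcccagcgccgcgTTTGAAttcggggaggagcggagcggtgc
CDC20: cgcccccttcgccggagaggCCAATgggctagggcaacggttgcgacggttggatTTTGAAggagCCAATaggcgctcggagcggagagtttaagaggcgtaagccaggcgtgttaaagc
CCNB2: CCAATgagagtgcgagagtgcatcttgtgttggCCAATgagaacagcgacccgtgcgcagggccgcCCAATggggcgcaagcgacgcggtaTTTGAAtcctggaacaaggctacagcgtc
INCENP: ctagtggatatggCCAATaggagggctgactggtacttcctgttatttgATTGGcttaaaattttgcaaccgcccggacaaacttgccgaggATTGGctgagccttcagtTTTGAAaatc
The TTTGAA began 29 bases before the start site in PLK1 and CCNB2, 65 bases before it in CDC20 and 10 bases before it in INCENP, while in DLGAP5 it lay on the opposite strand 109 bases before the start. No TTTGAA was present in the window of CDCA3, which held 1 CCAAT, 37 bases before the start. The letters did not sort the members by size of change: at 40 nM and 24 h the median log2 difference from vehicle was -0.96 in the 23 genes with TTTGAA and -0.97 in the 23 without it. No promoter was used here for TTK, AURKA, BUB3, WEE1, FOXM1, TPX2, UBE2C, RACGAP1 and BIRC5.

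The values are log2 RMA values, for which arrays of a time are on a common scale. The mean over all probe sets was 5.52 in each group at 48 h and 5.13 in both groups at 24 h, so levels at 48 h set against levels at 24 h also hold a step between the times. The epithelial markers KRT18 and KRT8 averaged 13.59 and 12.67 in vehicle at 48 h and 13.34 and 12.15 in vehicle at 24 h. Of the other 4 epithelial markers, KRT7, KRT19 and EPCAM averaged 13.49, 8.31 and 5.22 in vehicle at 48 h and 13.20, 4.85 and 3.97 in vehicle at 24 h. CDH1 (E-cadherin) averaged 10.16 and 7.36 in 40 nM and vehicle at 24 h and 6.95, 9.78 and 8.73 in vehicle, 10 nM and 40 nM at 48 h. The summed level of the 6, in which the brightest weigh most, lay between 14.6 and 15.1 on the log2 scale on all arrays. Summed levels ranged from 5.61 to 7.19 for the 4 measured leukocyte markers, from 6.55 to 7.34 for 6 endothelial markers and from 8.21 to 9.35 for 6 fibroblast markers, of which LUM averaged 2.46 and 2.53 in 40 nM and vehicle at 24 h and 6.37, 2.92 and 5.53 in vehicle, 10 nM and 40 nM at 48 h. The leukocyte gene PTPRC and the endothelial gene CDH5 stayed at or below 3.66 on every array, while other genes of these lists were brighter. CD14 averaged 4.03 in vehicle at 24 h and 5.52, 5.31 and 6.38 in vehicle, 10 nM and 40 nM at 48 h. In vehicle at 24 h and 48 h, CD3E averaged 4.54 and 5.11, PECAM1 5.06 and 5.57, and TEK 4.49 and 5.07. The fibroblast gene COL1A1 averaged 7.79 and 8.44 in the same groups.

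The 10 nM arrays stood apart from the other arrays, and every value at 10 nM below is to be read with that. Their 24 poly-A control probe sets, bacterial transcripts added before labelling, averaged 5.93 ± 0.06 in vehicle, 3.37 ± 0.04 at 10 nM and 5.81 ± 0.08 at 40 nM at 48 h (SD, n = 3 each). The difference between the 3′ and the 5′ control probe set of ACTB was 0.35 ± 0.06 in vehicle, 2.68 ± 0.03 at 10 nM and 0.44 ± 0.03 at 40 nM, whereas that of GAPDH was 0.15, 0.13 and 0.15. A total of 91 genes differed at least 4-fold between 10 nM and the vehicle of 48 h, and 87 of these lay nearer to the 24 h vehicle once the median shift between the times was taken off. EDIL3, for example, averaged 10.73 and 10.17 in 40 nM and vehicle at 24 h, and 5.81, 10.45 and 5.17 in vehicle, 10 nM and 40 nM at 48 h. An effect of the 10 nM dose cannot be told apart from whatever else set these 3 arrays apart.

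After 24 h at 40 nM, the mitotic genes fell almost without exception. Of the 55 members, 54 were called lower (adjusted p below 0.05), none was called higher (0 also at an unadjusted p of 0.05), and INCENP was not called, while 16.7% of all genes were called lower and 14.8% higher. The median member differed by -0.96 on the log2 scale, against -0.0072 for all genes, and 23 members fell at least 2-fold. In 54 members, all 3 arrays at 40 nM lay below all 3 vehicle arrays, and 37.6% of all genes had groups that did not overlap in either direction. The falls ranged from 0.22 ± 0.05 (SE) in BUB3 to 1.75 ± 0.06 in CDCA3. In bulk RNA, fewer cells in G2 or mitosis and less of each transcript per cell cannot be told apart.

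After 48 h at 40 nM, levels were close to those of vehicle. The median difference was 0.037, with 10 members called higher, against 10.5% of all genes, and 6 called lower, against 10.7% of all genes, and the remaining 39 were not called. Higher were CDK1, AURKA, UBE2C, ZWINT, HMMR, NUSAP1, TACC3, CKAP2, ANLN and ECT2, and lower were CDC25B, FOXM1, KIF18A, CENPA, MELK and SMC4. No difference reached 2-fold. These counts rest on small differences: without vehicle replicate 2 the number called higher was 6, and the number called lower was 3 without vehicle replicate 1, 2 without vehicle replicate 3 and 2 without 40 nM replicate 3. With array medians subtracted, 6 were called higher and 2 lower, and ZWINT, NUSAP1, ANLN, ECT2, FOXM1, KIF18A, MELK and SMC4 were no longer called. Without the 10 nM arrays, which share in the estimate of spread, 8 were higher and 5 lower, with NUSAP1, ANLN and KIF18A no longer called.

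The direct test of the change with time, the 40 nM effect at 48 h minus that at 24 h, called 54 members higher and none lower (0 also at an unadjusted p of 0.05), with a median of 0.94, while 9.18% of all genes were called higher and 8.11% lower in it. Of the 54 members called lower at 24 h, 10 were higher, 6 lower and 38 not called at 48 h. Without the 10 nM arrays 53 were called higher. The largest shifts were those of CDCA3 (1.84 ± 0.08), AURKB (1.41 ± 0.08) and DLGAP5 (1.32 ± 0.11). A step in level that all arrays of a time share drops out of this difference, but a difference in how the cells of each time responded does not. The vehicle arrays of the times differed by more than a common step. EDIL3, for example, averaged 10.17 in vehicle at 24 h and 5.81 in vehicle at 48 h, and CDH6 averaged 3.85 and 8.62. Whether such differences between the times had a part in the change of the 40 nM effect was not tested.

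**Figure D1:**
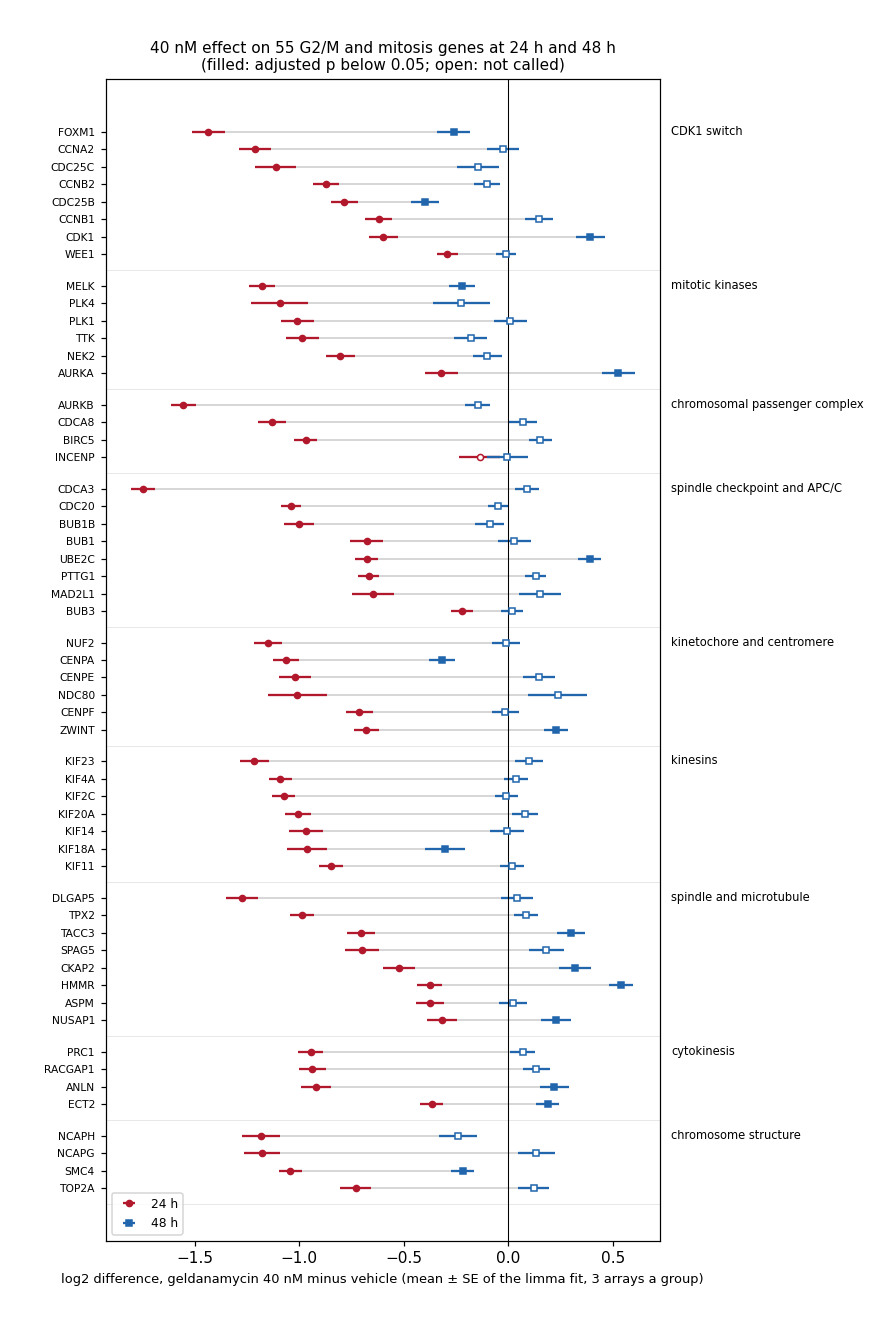
Log2 difference between geldanamycin at 40 nM and vehicle for each of the 55 members, by role group, at 24 h (circles) and 48 h (squares), with the standard error of the limma fit as bars and 3 arrays a group; filled symbols passed an adjusted p of 0.05. At 24 h all 55 points lie below 0, from -0.14 in INCENP to -1.75 in CDCA3, and at 48 h the points lie between -0.40 and 0.54 on both sides of 0.

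At 10 nM and 48 h, 21 members were called higher than in vehicle, against 14.4% of all genes, and 5 were called lower, against 11.9%, with a median difference of 0.15. AURKA, UBE2C and PTTG1 stood furthest above vehicle, and CDC25B, FOXM1, KIF18A, ANLN and SMC4 were the 5 called lower. Set against the vehicle arrays of 24 h, with all arrays quantile normalized together, the same 10 nM arrays gave 17 members called higher and 13 called lower; this setting was chosen after seeing the data. Between the doses at 48 h, 18 members were lower at 40 nM than at 10 nM, against 14.5% of all genes, and 4 were higher, CDK1, SMC4, ANLN and ECT2, against 11.9%, with a median of -0.12. The comparisons at 48 h share arrays.

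**Figure D2:**
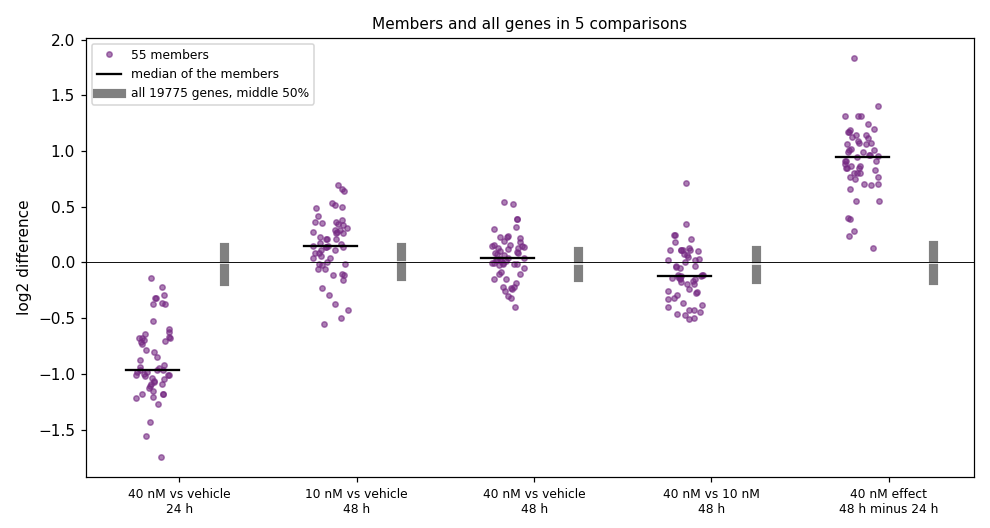
Log2 differences of the 55 members (points, with their median as a line) in 5 comparisons, beside the middle 50% of all 19775 genes (grey bars, with the median of all genes as a gap). The members lie around -0.96 at 40 nM and 24 h and around 0.94 in the difference between the times, and around 0.15, 0.037 and -0.12 in the 3 comparisons at 48 h.

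The CDK1 switch comprised 8 members, and all 8 fell at 24 h, with a median of -0.83. FOXM1, the transcription factor of G2 and M genes, had log2 values of 7.66, 7.51 and 7.78 at 40 nM and 9.21, 9.05 and 9.0 in vehicle at 24 h, a 2.7-fold fall (log2 difference -1.44 ± 0.08, adjusted p = 9.13e-09). CCNA2, cyclin A2, had values of 8.67, 8.60 and 8.85 at 40 nM against 10.03, 9.96 and 9.78 in vehicle, and fell by 1.21 (adjusted p = 3.37e-08). For both genes every array at 40 nM lay well below the lowest vehicle array. The kinase CDK1 itself had 10.43, 10.36 and 10.40 at 40 nM and 11.10, 11.01 and 10.86 in vehicle, and its partner cyclin B1, CCNB1, 10.84, 11.06 and 11.04 and 11.66, 11.62 and 11.51. Their falls of 0.60 and 0.62 were smaller than those of cyclin B2 (CCNB2, -0.87 ± 0.06) and of the phosphatases CDC25C (-1.11 ± 0.10) and CDC25B (-0.78 ± 0.06). WEE1, the kinase that inhibits CDK1, moved least of the 8, with 8.80, 8.80 and 8.81 at 40 nM against 9.14, 9.04 and 9.10 in vehicle and a difference of -0.29 ± 0.05 (adjusted p = 0.000304).

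Of the 8 switch members, 1 was called higher and 2 lower at 40 nM and 48 h, and 5 were not called. Of all genes, 10.5% were called higher and 10.7% lower there. The 10 nM arrays gave 3 switch members higher and 2 lower than vehicle, beside 14.4% and 11.9% of all genes. CDK1 had 11.03, 11.08 and 10.98 in vehicle, 11.17, 11.27 and 11.08 at 10 nM and 11.46, 11.42 and 11.39 at 40 nM, and was higher at 40 nM than in vehicle (0.39 ± 0.07, adjusted p = 0.000814) and than at 10 nM (0.25 ± 0.07, adjusted p = 0.0143). The last of these calls was lost without 10 nM replicate 3 (adjusted p = 0.0628), without 40 nM replicate 1 (0.0548) and with array medians subtracted (0.0658). CDC25B stayed below vehicle at 48 h, with 10.90, 10.97 and 10.95 in vehicle, 10.62, 10.69 and 10.63 at 10 nM and 10.50, 10.52 and 10.60 at 40 nM, and fell by 0.40 at 40 nM (adjusted p = 0.000466) and by 0.29 at 10 nM (adjusted p = 0.00381). Its groups did not overlap. FOXM1 had 9.64, 9.60 and 9.62 in vehicle, 9.28, 9.34 and 9.12 at 10 nM and 9.33, 9.38 and 9.38 at 40 nM, and differed by -0.37 ± 0.08 and -0.26 ± 0.08 from vehicle at 10 and 40 nM. The arrays of either dose lay below vehicle, but the FOXM1 call at 40 nM (adjusted p = 0.0304) was lost when any 1 of the 6 arrays compared was left out (adjusted p from 0.0654 to 0.0971). CDC25C had 7.94, 7.87 and 7.80 in vehicle, 8.38, 8.27 and 8.02 at 10 nM and 7.60, 7.82 and 7.75 at 40 nM, so that it was lower at 40 nM than at 10 nM by 0.50 (adjusted p = 0.00163). This call of CDC25C was lost with its probe sets averaged (-0.066, adjusted p = 0.659) and without probe sets of the _x_at and _s_at kinds, which can share sequence with other transcripts (-0.068, adjusted p = 0.827). FOXM1 has 1 probe set, of the _x_at kind, and so no other reading. CCNB1 had 11.66, 11.63 and 11.64, 11.90, 11.94 and 11.89 and 11.76, 11.76 and 11.85 in the same order of groups, and WEE1 9.48, 9.42 and 9.46, 9.52, 9.45 and 9.50 and 9.43, 9.48 and 9.42. CCNB1 was called higher at 10 nM (0.27 ± 0.07, adjusted p = 0.00727) and not called at 40 nM, and WEE1 was called in neither comparison.

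**Figure D3:**
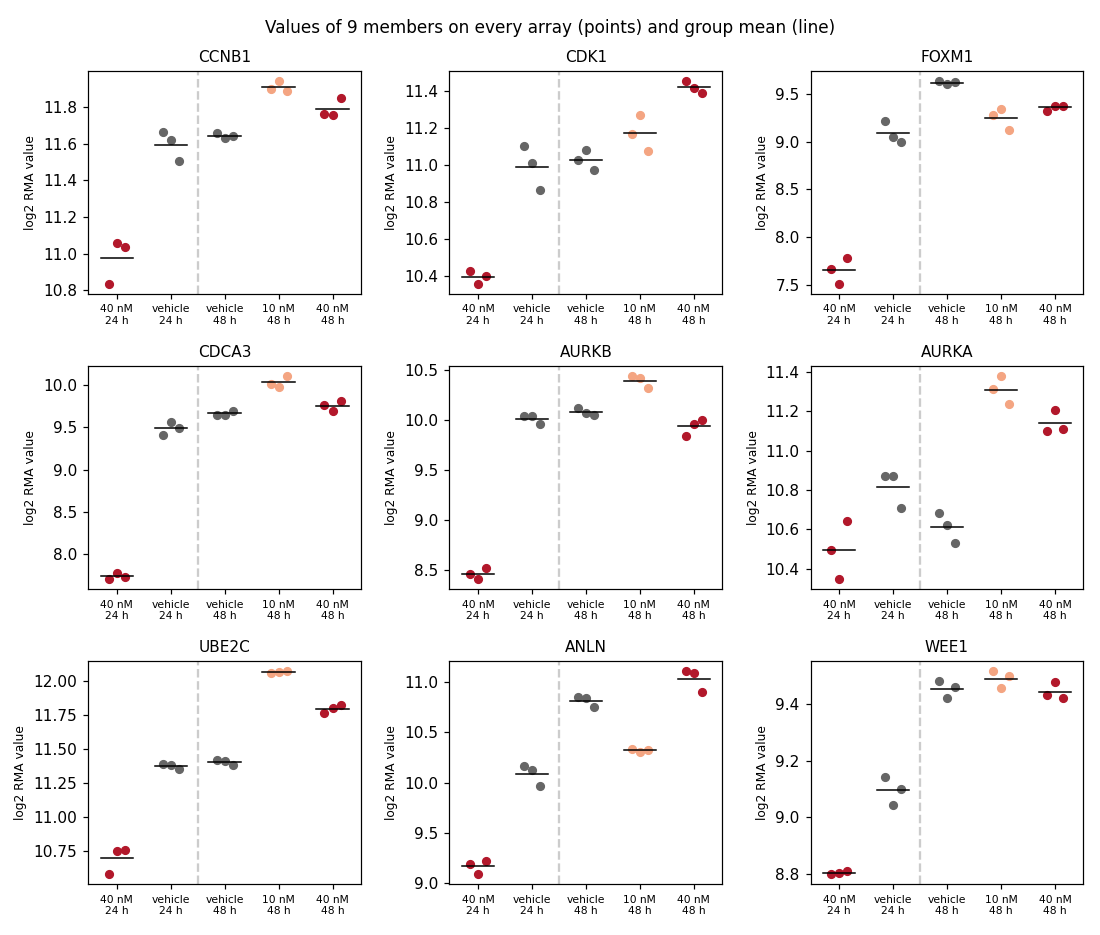
Log2 RMA values of 9 members on each array (points) with the group mean (line), for 40 nM and vehicle at 24 h and, right of the dashed line, vehicle, 10 nM and 40 nM at 48 h; each panel has its own axis, which does not start at 0. At 24 h the 40 nM points lie below the vehicle points in all 9 panels, and at 48 h AURKA and UBE2C lie above vehicle at either dose, ANLN lies below it at 10 nM, and WEE1 overlaps it.

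The 6 other mitotic kinases all fell at 24 h, with a median of -1.0. MELK, a kinase with peak expression in mitosis, had 10.00, 10.06 and 10.20 at 40 nM and 11.34, 11.26 and 11.18 in vehicle, and fell by 1.18 (adjusted p = 6.5e-09). PLK4, the kinase that starts centriole duplication, had 6.09, 6.10 and 6.67 at 40 nM against 7.56, 7.35 and 7.23 in vehicle. Its fall of 1.09 had a standard error of 0.14, with 40 nM replicate 3 above the other 2 arrays and still below vehicle. PLK1, which acts from mitotic entry to cytokinesis, fell by 1.01, TTK, the MPS1 kinase of the spindle checkpoint, by 0.98, and NEK2, a kinase of centrosome separation, by 0.80. AURKA, the Aurora kinase of centrosomes and spindle poles, moved least, with 10.49, 10.35 and 10.65 at 40 nM and 10.87, 10.87 and 10.71 in vehicle (difference -0.32 ± 0.08, adjusted p = 0.00614, and 0.0572 when only the 6 arrays compared were fitted).

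AURKA was also the kinase furthest above vehicle at 48 h. It had 10.68, 10.62 and 10.53 in vehicle, 11.31, 11.38 and 11.24 at 10 nM and 11.10, 11.20 and 11.11 at 40 nM, with no overlap of either dose with vehicle, and rose by 0.70 ± 0.08 at 10 nM (adjusted p = 1.34e-05) and by 0.53 ± 0.08 at 40 nM (adjusted p = 0.000255). Both AURKA calls ended without the _x_at and _s_at kinds, where its brightest remaining probe set gave 0.28 at 10 nM (adjusted p = 0.285) and 0.061 at 40 nM (adjusted p = 0.897). MELK had 11.06, 11.05 and 11.04 in vehicle, 11.23, 11.23 and 11.19 at 10 nM and 10.85, 10.87 and 10.77 at 40 nM, and fell by 0.22 at 40 nM (adjusted p = 0.0208). That call was lost without any 1 of the vehicle arrays or without 40 nM replicate 3 (adjusted p between 0.0517 and 0.0898), while the fall against 10 nM (-0.38 ± 0.06, adjusted p = 0.000346) was kept in each setting. TTK was higher than vehicle at 10 nM (0.29 ± 0.08, adjusted p = 0.0145) and lower at 40 nM than at 10 nM (-0.47 ± 0.08, adjusted p = 0.000509). The TTK call against vehicle was lost without 10 nM replicate 1 or 2 (adjusted p = 0.0517 and 0.0713) and with array medians subtracted (0.0572). PLK1 and PLK4 were called in no comparison at 48 h.

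Of the chromosomal passenger complex, which corrects faulty spindle attachments, 3 of 4 members fell at 24 h. AURKB, its kinase, had 8.45, 8.41 and 8.52 at 40 nM and 10.04, 10.05 and 9.96 in vehicle, a 2.94-fold fall (log2 difference -1.55 ± 0.06, adjusted p = 4.06e-10). The targeting subunits CDCA8 (borealin), with 7.78, 7.86 and 7.74 at 40 nM against 9.0, 8.91 and 8.86 in vehicle, and BIRC5 (survivin) fell by 1.13 and 0.97. INCENP, the scaffold that holds the complex together, did not: it had 6.0, 5.75 and 5.67 at 40 nM and 5.97, 5.78 and 6.09 in vehicle, with overlapping groups and a difference of -0.14 ± 0.10 (adjusted p = 0.355). INCENP gave the lowest mean of all members over the 15 arrays, and RMA values carry no detection call. At 48 h INCENP had 6.31, 6.09 and 6.21 in vehicle, 6.69, 6.54 and 6.64 at 10 nM and 6.11, 6.31 and 6.18 at 40 nM, and was higher than vehicle at 10 nM (0.42 ± 0.10, adjusted p = 0.00524) and lower at 40 nM than at 10 nM (-0.42 ± 0.10, adjusted p = 0.0051). AURKB had 10.13, 10.07 and 10.06, 10.44, 10.42 and 10.32 and 9.85, 9.96 and 10.00 in the same groups, and was higher than vehicle at 10 nM (0.31 ± 0.06, adjusted p = 0.00117) and not called at 40 nM (-0.15 ± 0.06, adjusted p = 0.11). No member of the complex was called in limma at 40 nM and 48 h, where 1 (BIRC5) was higher and 1 (AURKB) lower at an unadjusted p of 0.05.

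All 8 genes of the spindle checkpoint and of the APC/C pathway fell at 24 h, with a median of -0.68 and the widest range of any role group. CDCA3, an adaptor that promotes entry into mitosis, had 7.71, 7.78 and 7.73 at 40 nM and 9.41, 9.57 and 9.49 in vehicle, a 3.36-fold fall (log2 difference -1.75 ± 0.06, adjusted p = 1.12e-10). CDC20, the activator of the APC/C that the checkpoint holds back, had 10.01, 9.94 and 9.98 at 40 nM against 11.03, 11.01 and 11.01 in vehicle and fell by 1.04 (adjusted p = 2.6e-09). The replicates of both genes lay close together in each group, far apart from the other group. The checkpoint proteins BUB1B, BUB1 and MAD2L1 fell by 1.0, 0.68 and 0.64, the ubiquitin-conjugating enzyme UBE2C by 0.68 and PTTG1 (securin), an APC/C substrate, by 0.67. BUB3, the partner that brings BUB1 and BUB1B to kinetochores, had 11.34, 11.33 and 11.29 at 40 nM and 11.54, 11.59 and 11.49 in vehicle. Its fall of 0.22 (adjusted p = 0.00447) was the smallest called, and with only the compared arrays fitted the adjusted p was 0.0641.

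The APC/C genes UBE2C and PTTG1 rose at 10 nM and 48 h. UBE2C had 11.41, 11.41 and 11.38 in vehicle, 12.05, 12.06 and 12.07 at 10 nM and 11.76, 11.80 and 11.82 at 40 nM, and rose by 0.66 ± 0.05 at 10 nM and by 0.39 ± 0.05 at 40 nM (adjusted p = 6.57e-07 and 0.000136). PTTG1 had 11.34, 11.39 and 11.31, 11.98, 12.03 and 11.95 and 11.43, 11.46 and 11.54, and rose by 0.64 ± 0.05 at 10 nM (adjusted p = 4.24e-07) but was not called at 40 nM (0.13 ± 0.05, adjusted p = 0.0874). Its 1 probe set is of the _x_at kind. The 3 groups of UBE2C were separate, with 40 nM between vehicle and 10 nM, and PTTG1 was lower at 40 nM than at 10 nM by 0.51 (adjusted p = 4.9e-06). CDCA3 had 9.64, 9.65 and 9.69 in vehicle, 10.01, 9.97 and 10.10 at 10 nM and 9.76, 9.69 and 9.81 at 40 nM, so the gene with the largest fall at 24 h stood 0.091 ± 0.06 from vehicle at 48 h (adjusted p = 0.358). The checkpoint genes BUB1, BUB1B, BUB3 and MAD2L1 were called in no comparison at 48 h.

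The 6 kinetochore and centromere genes fell at 24 h by 0.68 to 1.15. NUF2, a subunit of the microtubule-binding NDC80 complex, had 7.67, 7.75 and 7.72 at 40 nM and 8.94, 8.95 and 8.70 in vehicle and fell by 1.15 (adjusted p = 1.48e-08). CENPA, the histone H3 variant that marks centromeres, had 8.12, 8.13 and 8.07 at 40 nM against 9.26, 9.21 and 9.04 in vehicle and fell by 1.06 (adjusted p = 1.48e-08). CENPE, a kinesin of the kinetochore, fell by 1.02, NDC80 by 1.01, CENPF by 0.71 and ZWINT, a kinetochore linker, by 0.68. At 48 h CENPA had 9.37, 9.37 and 9.40 in vehicle, 9.48, 9.50 and 9.50 at 10 nM and 8.98, 9.09 and 9.13 at 40 nM, and fell by 0.32 against vehicle at 40 nM (adjusted p = 0.00199). The CENPA arrays at 40 nM lay below all others of 48 h, and this call was kept in each setting that measured CENPA, whose 1 probe set is of the _x_at kind. ZWINT, in contrast, rose by 0.23 ± 0.06 at 40 nM (adjusted p = 0.0115), which was lost without vehicle replicate 2 (adjusted p = 0.0609). At 10 nM, 4 of the 6 were called higher than vehicle, NUF2, NDC80, CENPE and ZWINT, by 0.29 to 0.50, beside 14.4% of all genes. The NDC80 call was lost without vehicle replicate 2 or 3 or 10 nM replicate 1 or 2 (adjusted p from 0.0542 to 0.0657), and that of CENPE without vehicle replicate 2 or 10 nM replicate 2 and with array medians subtracted (adjusted p from 0.0518 to 0.058).

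All 7 kinesins, the motors that slide, sort and shorten spindle microtubules, fell at 24 h, within a narrow range of 0.85 to 1.21. KIF23, a motor of the central spindle, had 8.31, 8.28 and 8.33 at 40 nM and 9.66, 9.57 and 9.34 in vehicle and fell by 1.21 (adjusted p = 1.13e-08). KIF4A, a chromokinesin, had 8.24, 8.18 and 8.29 at 40 nM against 9.39, 9.31 and 9.28 in vehicle and fell by 1.09 (adjusted p = 4.79e-09). KIF2C, a microtubule depolymerase, KIF20A and KIF14, which act in cytokinesis, and KIF11 (Eg5), which pushes spindle poles apart, fell by 1.07, 1.01, 0.97 and 0.85. KIF18A, which dampens chromosome movements at the metaphase plate, had 7.32, 7.20 and 7.60 at 40 nM and 8.45, 8.29 and 8.25 in vehicle at 24 h, and 8.43, 8.26 and 8.37 in vehicle, 7.73, 7.88 and 7.80 at 10 nM and 8.10, 8.10 and 7.96 at 40 nM at 48 h. KIF18A was thus the kinesin below vehicle in all 3 comparisons, by 0.96, 0.55 and 0.30, each without overlap. Its call at 40 nM and 48 h (adjusted p = 0.0358) was lost without vehicle replicate 1 or 3 or without any 1 of the 40 nM arrays, with adjusted p between 0.0622 and 0.136. The other 6 kinesins were not called at 40 nM and 48 h, with differences from -0.0092 to 0.10.

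Among the 8 genes of the spindle and its microtubules, the falls at 24 h ranged from 0.32 in NUSAP1 to 1.27 in DLGAP5, with a median difference of -0.61. DLGAP5 (HURP), which stabilises kinetochore fibres, had 8.48, 8.34 and 8.61 at 40 nM and 9.87, 9.75 and 9.64 in vehicle and fell by 1.27 (adjusted p = 2e-08). TPX2, the spindle protein that activates AURKA, had 9.23, 9.29 and 9.40 at 40 nM against 10.35, 10.27 and 10.25 in vehicle and fell by 0.99 (adjusted p = 1.79e-08). TACC3, SPAG5 and CKAP2 fell by 0.70, 0.70 and 0.52, and HMMR, ASPM and NUSAP1 by 0.38, 0.37 and 0.32, of which NUSAP1 had an adjusted p of 0.0586 with only the compared arrays fitted. At 40 nM and 48 h, 4 of the 8 were called higher than vehicle and none lower, beside 10.5% and 10.7% of all genes. Of the cytokinesis genes, 2 of 4 were called higher there and none lower. HMMR, a spindle assembly factor that binds hyaluronan, had 10.71, 10.71 and 10.74 in vehicle, 11.17, 11.21 and 11.24 at 10 nM and 11.34, 11.23 and 11.20 at 40 nM, and rose by 0.49 ± 0.06 and 0.54 ± 0.06 at 10 and 40 nM (adjusted p = 2.12e-05 and 1.42e-05). Neither dose overlapped vehicle in HMMR, and the doses overlapped each other. CKAP2, TACC3 and NUSAP1 rose by 0.32, 0.30 and 0.23 at 40 nM, and the call of NUSAP1 was lost without any 1 of the 6 arrays compared (adjusted p from 0.0731 to 0.105). That of CKAP2 was lost with its probe sets averaged (0.049, adjusted p = 0.697).

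The 4 cytokinesis genes fell at 24 h, with a median of -0.93. PRC1, the bundler of midzone microtubules, had 9.44, 9.46 and 9.53 at 40 nM and 10.46, 10.38 and 10.42 in vehicle at 24 h and fell by 0.94. RACGAP1, the partner of KIF23 in centralspindlin, had 9.29, 9.14 and 9.18 at 40 nM against 10.21, 10.17 and 10.04 in vehicle and fell by 0.94. ANLN (anillin), a scaffold of the contractile ring, and ECT2, the exchange factor that activates RhoA there, fell by 0.92 and 0.37. At 48 h ANLN had 10.85, 10.84 and 10.75 in vehicle, 10.33, 10.31 and 10.32 at 10 nM and 11.11, 11.09 and 10.90 at 40 nM. It was therefore below vehicle at 10 nM (-0.49 ± 0.07, adjusted p = 0.000104), above it at 40 nM (0.22 ± 0.07, adjusted p = 0.0385) and higher at 40 nM than at 10 nM by 0.72 ± 0.07 (adjusted p = 4.2e-06). ECT2 had 10.48, 10.56 and 10.61 in vehicle, 10.40, 10.39 and 10.39 at 10 nM and 10.80, 10.75 and 10.68 at 40 nM, and rose by 0.19 ± 0.06 at 40 nM (adjusted p = 0.0274). The calls at 40 nM against vehicle were weak. That of ANLN was lost without any 1 of the vehicle arrays or 40 nM replicate 1 or 2, and that of ECT2 without vehicle replicate 1 or 2 or 40 nM replicate 1 or 2, with adjusted p up to 0.149 and 0.125.

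The 4 genes of chromosome structure had the lowest median at 24 h, -1.11. NCAPH and NCAPG, subunits of condensin I, had 7.22, 7.31 and 7.38 and 8.18, 8.23 and 8.27 at 40 nM, against 8.69, 8.47 and 8.30 and 9.56, 9.44 and 9.22 in vehicle. They fell by 1.18 and 1.18 (adjusted p = 1.9e-07 and 1.42e-07), TOP2A (topoisomerase II alpha) by 0.73, and SMC4, the ATPase that both condensins use, by 1.04. SMC4 remained below vehicle at 48 h, with 11.28, 11.19 and 11.28 in vehicle, 10.85, 10.78 and 10.84 at 10 nM and 11.01, 11.11 and 10.98 at 40 nM. Its differences from vehicle were -0.42 ± 0.06 at 10 nM (adjusted p = 4.71e-05) and -0.22 ± 0.06 at 40 nM (adjusted p = 0.0112), the second of which was lost without vehicle replicate 3 or 40 nM replicate 3 (adjusted p = 0.0504 and 0.0524). With its probe sets averaged, the SMC4 difference at 40 nM was 0.057 (adjusted p = 0.629). NCAPG was higher than vehicle at 10 nM (0.54 ± 0.09, adjusted p = 0.000318), and TOP2A was called in no comparison at 48 h.

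**Figure D4:**
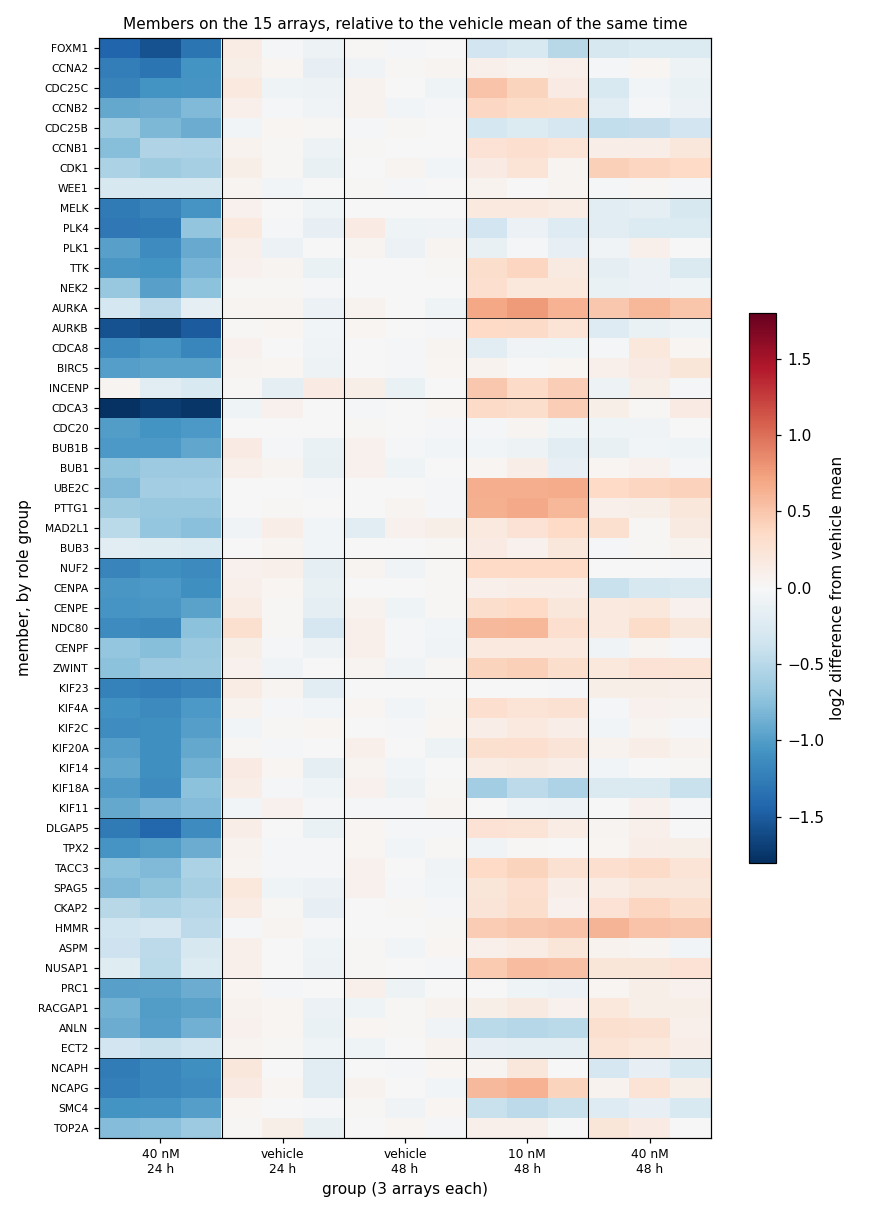
Log2 difference of each of the 55 members on each of the 15 arrays from the mean of the 3 vehicle arrays of the same time, by role group, with blue below and red above vehicle. The 40 nM arrays of 24 h are blue in nearly all members, by up to 1.75 on average in CDCA3, and the arrays of 48 h are mixed, with AURKA, UBE2C and HMMR above vehicle at either dose and CDC25B and KIF18A below it.

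The members have 105 single-symbol probe sets, so 50 others in 28 genes could be set beside the brightest ones. At 24 h, 47 of these 50 had the sign of the gene's brightest probe set, 33 were called lower and none higher, in a fit over all probe sets. In the change of the 40 nM effect with time, 44 of the 50 had the same sign, and 27 were called higher and none lower. Not all calls at 24 h held in other probe sets. Without the probe sets of the _x_at and _s_at kinds, 44 members were measured and 37 were called lower. Members whose brightest probe set is of neither kind kept that probe set, so for them this setting holds no other reading. Read from their brightest remaining probe set, 6 members lost the call, KIF23 (-0.42), ASPM (-0.28), BUB3 (-0.091), CDC25C (-0.028), ECT2 (-0.030) and AURKA (-0.0018). With a gene's probe sets averaged, CCNB2 was not called (-0.15, adjusted p = 0.212). At 48 h the probe sets of a gene differed more often: 34 of 50 had the same sign for 40 nM against vehicle, 36 for 10 nM against vehicle and 30 for 40 nM against 10 nM. Several genes had probe sets that fell at 24 h but were of opposite sign at 10 nM. NEK2 had differences of -0.80 and -0.87 at 40 nM and 24 h in its 2 probe sets, and of 0.23 and -0.69 at 10 nM. CDC25C had -1.11 and -0.72 at 24 h in its 2 brighter probe sets, and 0.36 and -0.40 at 10 nM, while its remaining probe set hardly moved at 24 h (-0.028). WEE1 had -0.29 and -0.25 at 24 h, and 0.04 and -0.76 at 10 nM. The 10 nM arrays are those with the wide difference between the 3′ and 5′ probe sets of ACTB, and its part in these results was not tested.

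Among 22 upstream regulators of these genes, 21 were measured, and at 24 h 11 were lower and 2 higher at 40 nM, with a median of -0.24, beside 16.7% and 14.8% of all genes. E2F7 and E2F8, repressors that are themselves E2F targets, fell by 1.40 and 1.25, and MYBL2 (B-MYB) by 0.89 (adjusted p = 1.24e-08). MYBL2 had 7.66, 7.58 and 7.67 at 40 nM against 8.55, 8.53 and 8.52 in vehicle. RBL1 (p107), a pocket protein of the DREAM complex, fell by 0.68, while E2F4, its E2F partner, was not called at either time (0.029 ± 0.12 at 24 h and 0.043 ± 0.12 at 48 h). CDKN1A (p21), a CDK inhibitor, rose: it had 9.76, 9.76 and 9.64 at 40 nM and 9.01, 9.10 and 9.09 in vehicle at 24 h (0.65 ± 0.06, adjusted p = 5.6e-07). At 48 h CDKN1A had 9.48, 9.41 and 9.51 in vehicle, 10.23, 10.24 and 10.27 at 10 nM and 10.82, 10.89 and 10.82 at 40 nM, with differences of 0.77 ± 0.06 and 1.38 ± 0.06 from vehicle (adjusted p = 1.62e-07 and 1.06e-09) and no overlap between the groups. CDKN1A was thus further above vehicle at 48 h than at 24 h, by 0.73 ± 0.08 (adjusted p = 2.35e-05). Whether its rise had a part in the changes of the mitotic genes was not tested. At 40 nM and 48 h, where 10.5% of all genes were called higher and 10.7% lower, 2 of the 21 regulators were higher, CDKN1A and RB1 (0.46 ± 0.07), and 2 lower, TFDP2 (-0.41 ± 0.12) and NFYC (-0.35 ± 0.08). At 10 nM 5 were higher and 5 lower, beside 14.4% and 11.9% of all genes, among them E2F8 (0.81 ± 0.08), RBBP4 (-0.52 ± 0.08) and NFYB (-0.45 ± 0.06). In the change of the 40 nM effect with time, 10 were higher and 1 lower, beside 9.18% and 8.11% of all genes. The largest rises were those of E2F7 (1.58 ± 0.16), E2F8 (1.50 ± 0.12) and MYBL2 (0.96 ± 0.07).

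The subunits of the APC/C itself, 12 of 13 measured, gave mixed calls: at 24 h 4 were lower, 1 was higher and 7 were not called, with a median of -0.14, beside 16.7% of all genes called lower and 14.8% higher. ANAPC11, the catalytic RING subunit, fell by 0.45, ANAPC10 by 0.30 and FZR1 (CDH1), the activator of late mitosis and G1, by 0.23, whereas ANAPC13 rose by 0.29. At 40 nM and 48 h, 3 were lower, CDC27 (-0.46 ± 0.10), ANAPC11 (-0.43 ± 0.05) and CDC16 (-0.25 ± 0.05), and ANAPC13 was higher (0.42 ± 0.05). Of all genes, 10.7% were called lower and 10.5% higher there. At 10 nM 4 were higher and 2 lower, beside 14.4% and 11.9% of all genes, and CDC27 stood furthest from vehicle (0.82 ± 0.10). In the change with time, ANAPC10 was the subunit called (0.44 ± 0.12), beside 9.18% of all genes called higher and 8.11% lower.

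Of 35 further mitosis genes, 34 were measured, and at 24 h 32 were called lower and none higher, with a median of -0.85. Of all genes, 16.7% were called lower and 14.8% higher there. The kinetochore genes SPC25, SKA1 and SPC24 fell by 1.59, 1.54 and 1.52, DEPDC1B by 1.16, and the proliferation marker MKI67 by 0.79 (adjusted p = 1.38e-05). MKI67 had 7.79, 7.73 and 7.97 at 40 nM and 8.80, 8.67 and 8.39 in vehicle at 24 h, and 8.93, 8.90 and 8.89 in vehicle, 9.29, 9.29 and 9.12 at 10 nM and 8.98, 9.07 and 9.0 at 40 nM at 48 h. At 48 h it was higher at 10 nM (0.33 ± 0.09, adjusted p = 0.0177) and not called at 40 nM (0.11 ± 0.09, adjusted p = 0.527). The change of the 40 nM effect with time was called higher in 29 of the 34 and lower in none, with a median of 0.91, beside 9.18% and 8.11% of all genes. It was led by SPC25 (1.36 ± 0.13), SKA1 (1.22 ± 0.15) and CEP55, a protein of the midbody (1.17 ± 0.08). At 40 nM and 48 h, 7 were lower and 4 higher, beside 10.7% and 10.5% of all genes. Among them were SPC24 (-0.49 ± 0.10), CENPN (-0.47 ± 0.06), SGO2, the shugoshin that guards cohesion (0.44 ± 0.10), and DEPDC1 (0.43 ± 0.09). At 10 nM 13 were higher and 2 lower, beside 14.4% and 11.9% of all genes. Between the doses, 15 were lower and 3 higher at 40 nM than at 10 nM, beside 14.5% and 11.9% of all genes.

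Between the vehicle groups, 29 members were called higher at 48 h than at 24 h and 4 lower, beside 67.3% and 3.35% of all genes. The members' median was 0.17 and that of all genes 0.35. ANLN, ECT2 and ASPM had the largest differences, 0.73 ± 0.07, 0.68 ± 0.06 and 0.63 ± 0.07, and the 4 called lower were AURKA (-0.20 ± 0.08), MELK (-0.21 ± 0.06), TTK (-0.20 ± 0.08) and TPX2 (-0.15 ± 0.06). The direction of most of these differences depends on how the times are put on 1 scale. With all 15 arrays quantile normalized together, 8 members were higher and 30 lower at 48 h, and the members' median was -0.15. The number called lower was 1 without vehicle replicate 1 or 2 of 24 h or without vehicle replicate 2 or 3 of 48 h.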

How the data were processed

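RNA of 15 samples of A549 cells was labelled with biotin and hybridised to 15 arrays. Per the submitters' processing notes, the authors made the deposited log2 values with RMA in Affymetrix Expression Console, version not given in the sources used here. The table holds 54675 probe sets; 41091 carried 1 gene symbol, 1801 carried several and named no gene, 62 were controls and 11721 are unnamed here. Each of 19775 genes was read from its brightest single-symbol probe set, by the mean of the 15 arrays.

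A linear model of the 5 group means was fitted in limma 3.58.1 under R 4.3.3 (lmFit, then eBayes) to the 15 arrays together, which leaves 10 residual degrees of freedom. P-values are two-sided and adjusted by Benjamini-Hochberg over all 19775 genes, with a threshold of 0.05, and "±" beside a log2 difference is its standard error. The fit was tested on simulated data. Precision is limited by the number of arrays, and over all genes the standard error of a difference had a median of 0.097.

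The members, role groups, lists, motifs and the rule for named genes were chosen with earlier results of these data known. The rule gives values on every array for the 2 members of each role group with the largest difference at 40 nM and 24 h, the 3 with the largest difference in each other comparison, members called against the direction of most, and CDK1, CCNB1, FOXM1, WEE1 and BUB3. Of the lists it names up to 4 called genes a comparison with the largest difference, and CDKN1A, MYBL2, E2F4 and MKI67. List genes without a single-symbol probe set, among them ANAPC1, CIT and CD68, are not reported here.

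Same-numbered replicates did not deviate together: the correlations of their deviations from the group means had a median of -0.064, so replicate numbers were not used as a block. No arrays held identical values. Alternatives were other normalizations between arrays (cyclic loess, array medians subtracted, quantiles), the dimmest 40% of genes left out, probe sets averaged per gene, probe sets ending in _x_at or _s_at left out, the compared groups alone, array weights, a robust prior with intensity trend, a replicate block and each array left out in turn. Fits without the 10 nM arrays, and of the 10 nM arrays against the 24 h vehicle, were added after seeing the data.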

Additional observations from a re-analysis of the deposited data

Results flagged for a closer look

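The effect of 40 nM differed between 48 h and 24 h, and was higher at 48 h, in 54 of the 55 members, by limma's test of the difference itself (adjusted p below 0.05), while 9.18% of all genes were called higher in it. The largest differences were 1.84 in CDCA3, 1.41 in AURKB and 1.32 in DLGAP5 on the log2 scale. In addition, the 10 nM group stood apart in a measurement outside the gene comparisons: the 3′ control probe set of ACTB exceeded the 5′ one at 48 h by 0.35 in vehicle, 2.68 at 10 nM and 0.44 at 40 nM on the log2 scale, and at 24 h by 0.14 at 40 nM and 0.13 in vehicle. Its part in the calls at 10 nM was not tested.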

How the results depend on the processing

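The 54 falls at 24 h numbered 51 to 54 under all alternatives that measured 55 members and 54 without any 1 array, and the 54 rises in the change with time numbered 50 to 54 and 53 to 54. With probe sets ending in _x_at or _s_at left out, they were 37 and 36 of 44 members. Of these 44, members whose brightest probe set is of neither kind were read from it again. In all alternatives that measured them, 47 of 55 members kept direction and call at 24 h and 46 in the change with time. The numbers were 35 for 40 nM and 32 for 10 nM against vehicle at 48 h and 22 between the doses. Members not among the 44 were judged by the other alternatives only. Members that a setting did not measure drop out of its count, and the cause of the other shifts that follow was not tested. At 10 nM the 5 members called lower became 8 with probe sets averaged, 8 with array weights and 13 against the 24 h vehicle. They became 2 without _x_at and _s_at probe sets, where CDC25B, FOXM1 and KIF18A were not measured. At 40 nM and 48 h the 6 called lower became 2 and the 10 called higher became 6 with array medians subtracted. Without _x_at and _s_at probe sets the 6 called lower became 2, but CDC25B, FOXM1, KIF18A and CENPA were not measured there. The 4 called higher at 40 nM than at 10 nM became 12 with cyclic loess, 2 with array medians subtracted, and 7 with the mean of probe sets, with the intensity trend and robust prior and with array weights. Between the vehicle groups, scaling moves the median of all genes by over 0.1. The 4 called lower there became 28 with cyclic loess, 37 with array medians subtracted and 30 with quantile normalization. Under the same 3 scalings the 29 called higher became 8, 1 and 8. Without _x_at and _s_at probe sets the 4 called lower became 2, with TPX2 not measured. Leaving out each array in turn gave 17 to 23 higher and 5 to 6 lower at 10 nM, 6 to 9 higher and 2 to 4 lower at 40 nM and 48 h, 3 to 4 higher and 15 to 17 lower between the doses, and 22 to 28 higher and 1 to 5 lower between the vehicle groups.

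With the mean of probe sets, the difference turned sign at 10 nM in WEE1 (-0.36) and NEK2 (-0.23), at 40 nM and 48 h in SMC4 (0.057), and between the doses in WEE1 (0.35) and NEK2 (0.15). Without _x_at and _s_at probe sets it turned at 40 nM and 48 h in ECT2 (-0.12), between the doses in ECT2 (-0.15), and in the change with time in BUB3 (-0.085), ASPM (-0.072) and ECT2 (-0.086). The replicate numbers are only numbers here: same-numbered deviations correlated between -0.46 and 0.50, and 6 of 15 arrays correlated best with their own number. With the replicate number as a block, 54 members fell at 24 h, 21 were higher and 5 lower at 10 nM, 9 higher and 5 lower at 40 nM and 48 h, 4 higher and 16 lower between the doses, 53 higher in the change with time, and 26 higher and 3 lower between the vehicle groups.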
